A study of Eleocharis dulcis with 24 samples.

Results

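The last step of corm development in cultivated *Eleocharis dulcis*, from late swelling to maturity, was examined in 3 late and 3 mature libraries. *Eleocharis dulcis* (Chinese water chestnut) is a sedge grown for its corm, an underground stem that swells and is eaten when mature. The genes described are the 20493 that reached an abundance of at least 1 TPM in at least 3 of these 6 libraries, of 35975 in the deposited table. TPM is the abundance of a transcript per unit of its length, scaled so that each library sums to the same total. The series held 4 stages (initial, middle and late swelling, and maturity) of cultivated and of wild corms, with 3 biological replicates per group. The groups used for the main comparison were untreated as far as the labels tell, and both were corm RNA from plants labelled cultivated. The labels give no plant line, age in days, growing site or number of corms per library.

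A corm is a storage organ: while it swells, cells divide and enlarge and carbohydrate, mainly starch, is laid down, and at maturity growth slows before the corm rests. Late swelling and maturity are therefore neighbouring points between active filling and a ripe organ. The files do not pair gene IDs with names and no annotation was used here, so genes are given by ID, no role is assigned to any of them, and the corm label could not be checked against marker genes. Most IDs begin with EdulChr (19024 of the 20493 genes). The other 1469 carry an ID without that prefix, such as novel1867.

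Of the 20493 genes, 18165 met the minimum of 1 TPM in all 6 libraries. A further 863 did so in all 3 late and no mature library, and 188 in all 3 mature and no late library. Those genes met the minimum through the stage at which they were high and so had to differ. They remain in the counts and lists below, and their number within each list is not given. Library totals lay between 999999 and 1000002 TPM, so sequencing depth is unknown and no counting interval can be given. Genes outside the 20493 held 0.151 to 0.253% of a library's total. Spearman correlations across genes were 0.992 between late libraries, 0.989 to 0.990 between mature libraries and 0.921 to 0.923 between a late and a mature library. These are bulk samples, in which fewer cells of a type and less RNA per cell cannot be told apart.

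Transcript abundance was concentrated in far fewer genes at maturity. The 10 highest genes of a library held 12.5, 12.7 and 12.8% of all TPM in the late libraries and 29.6, 30.1 and 30.7% in the mature ones. The groups did not overlap. The means were 12.7 ± 0.155% and 30.1 ± 0.584% (SD, n = 3 each), a difference of 17.5 percentage points. The exact two-sided permutation test gave p = 0.1, the smallest that 3 against 3 libraries allow (adjusted p = 0.1 over 2 such tests). A single feature, the highest of the mature libraries and described below, went from 1.17 to 13.2% of TPM between the stage means. In the late libraries the 438, 438 and 447 highest genes were needed to hold 50% of TPM, and in the mature libraries 117, 123 and 133 were enough. By TPM as deposited, the number of genes at 1000 TPM or more was 107 to 109 in late libraries and 81 to 85 in mature libraries. The number at 100 TPM or more was 1449 to 1474 in late and 1094 to 1120 in mature libraries.

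**Figure D1:**
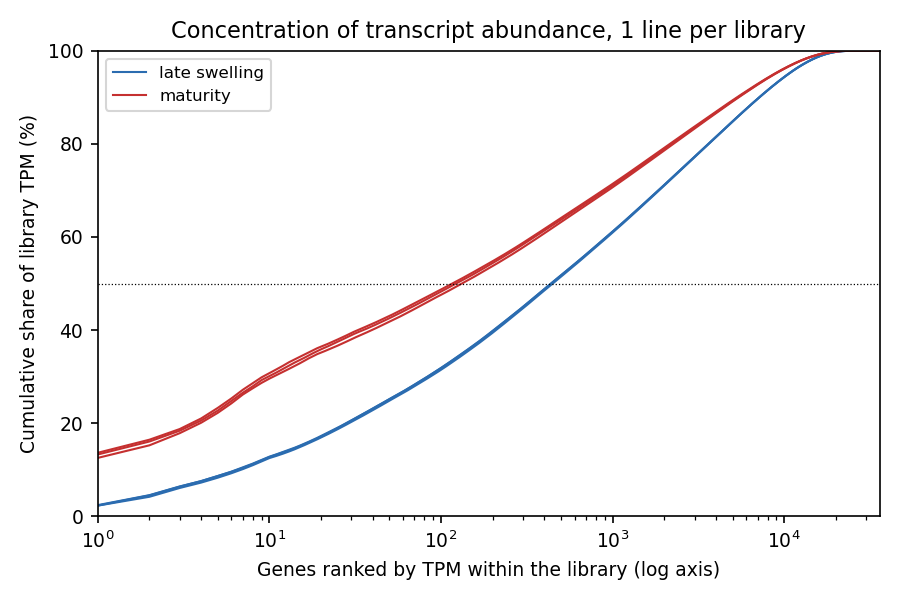
Cumulative share of library TPM (%, y axis) held by genes ranked from the highest (x axis, log scale), with 1 line per cultivated library in blue for late swelling and red for maturity; the dotted line marks 50%. The 3 mature lines lie above the 3 late lines, and cross 50% at 117 to 133 genes against 438 to 447.

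A net 30.2% of the TPM total was redistributed between the stage means, and the gain and the loss were spread very differently. Gains summed to 302298 TPM over 3960 genes, and 10 genes took 74.9% of that. Losses summed to 301420 TPM over 16528 genes, of which the 10 largest made up 16.8%. It took 95 genes to reach 90% of the gain and 5330 genes to reach 90% of the loss. All 10 of the largest gainers passed limma's test, with log2 changes from 0.78 to 3.50 (after median-of-ratios scaling, 1.33 to 4.05). They stood at 691 to 11660 TPM in late and 4645 to 131633 TPM in mature corms.

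The largest gain was that of novel1867, the highest feature of the mature libraries. It stood at 11402, 11563 and 12015 TPM in the late libraries and at 125527, 132854 and 136519 TPM in the mature ones. Every mature library was over 10 times as high as every late library. The mean rose 11.3-fold, from 11660 ± 317 to 131633 ± 5597 TPM (SD, n = 3), which is 3.50 ± 0.07 in log2 units (SE, with adjusted p = 6.70e-19 by limma). That p-value draws on the spread in all groups of the fit. With only the late and mature cultivated libraries fitted, the limma adjusted p was 0.00704. Its share of the total went from 1.17 to 13.2%, and it alone made up 39.7% of the summed gain. Late swelling was not its starting level: novel1867 had stood at 36622 ± 774 TPM at the middle stage (SD, n = 3), above the late value.

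EdulChr3G00014480 had the next largest gain. Its late libraries held 3176, 3244 and 3285 TPM and its mature libraries 27026, 27885 and 28102 TPM. The log2 change was 3.10 ± 0.26 (SE, with adjusted p = 1.55e-09 by limma), an 8.55-fold rise in the mean. Unlike novel1867 it showed no dip before the step, with 3063 ± 140 TPM at the middle stage against 3235 ± 55.0 TPM at late swelling (SD, n = 3).

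The 2 largest losses of TPM were those of genes that stayed abundant. EdulChr34G00135090 fell from 18686, 18771 and 18882 TPM to 7517, 7661 and 7673 TPM, a log2 change of -1.30 ± 0.05 (SE, with adjusted p = 9.66e-15 by limma). After median-of-ratios scaling its change was under 2-fold, at -0.74 (limma adjusted p = 1.14e-11). With only the 6 cultivated libraries of the 2 stages fitted, its limma adjusted p was 0.00217. It had been highest at the initial stage, at 37109 ± 2185 TPM (SD, n = 3). EdulChr8G00035780 fell from 22978, 23128 and 24091 TPM to 13493, 13875 and 14132 TPM, a log2 change of -0.76 ± 0.06 (SE, with adjusted p = 1.92e-10 by limma). The groups of each gene did not overlap, which the rule for named genes required. The fall of EdulChr8G00035780 depended on the processing: it was -0.20 after median-of-ratios scaling (limma adjusted p = 0.00155) and missed the threshold when only the 6 cultivated libraries were fitted (limma adjusted p = 0.0637).

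TPM values in a library sum to a constant, so they give shares and not amounts. The median log2 change of the 20493 genes was -0.46, with a middle 50% from -0.77 to -0.12. Median-of-ratios scaling, which sets the typical gene equal between libraries, shifted the change of a gene by a median of 0.50 (log2, less for genes of low TPM) and gave a median change of 0.02, with a middle 50% from -0.30 to 0.37. As deposited, 16704 genes passed limma's test, 2537 higher and 14167 lower at maturity. In the whole table of 27050 genes tested, 66.9% passed, 10.7% higher and 56.2% lower. After scaling, 7507 were higher and 6431 lower (29.8 and 25.6% in the whole table). The share of calls that were higher thus went from 15.2 to 53.9%, and with the 10 highest genes removed it was 33.7%.

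**Figure D2:**
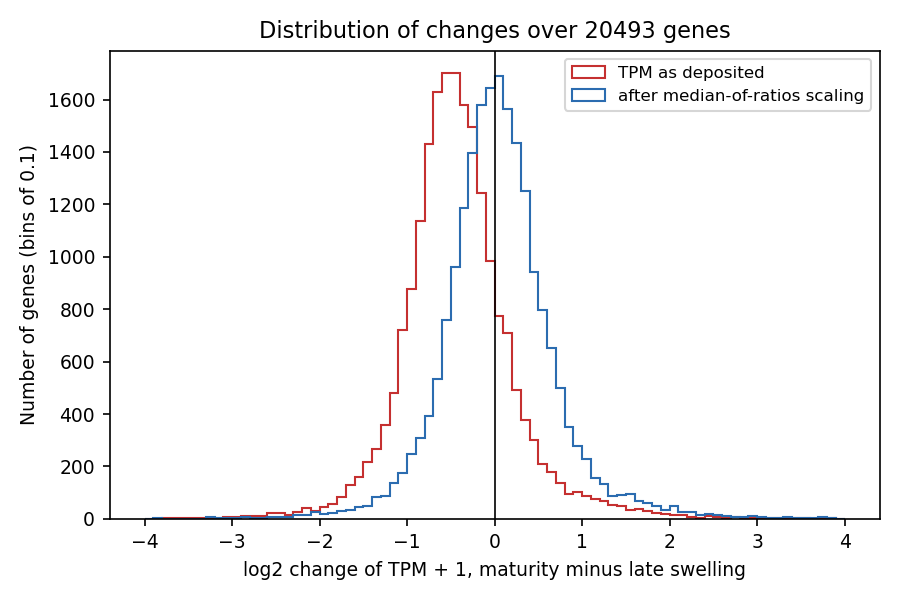
Number of genes (y axis, bins of 0.1) by log2 change of TPM + 1 from late swelling to maturity (x axis), for values as deposited in red and after median-of-ratios scaling in blue. The red distribution is centred at -0.46 and the blue one at 0.02; 23 genes with a change beyond 4 in either direction under one or both scalings fall outside the axis there.

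Directions that held under both scalings were separated from those that did not. A total of 2537 genes were called higher under both and 6431 lower under both. For 2099 genes the direction turned: lower as deposited and higher after scaling. Another 5637 were called as deposited and not after scaling, 2871 only after scaling, and 918 under neither. Scaling divided late libraries by 1.29 to 1.30 and mature ones by 0.87 to 0.89, which moved changes upward. That no gene was called higher as deposited and lower after scaling was therefore fixed in advance. For the same reason the counts of 2537 and 6431 are no check. They are the whole list of rises as deposited and the whole list of falls after scaling. At 2-fold or more, meaning at least 1 on the log2(TPM + 1) scale, 580 genes rose and 2739 fell as deposited (2.16 and 10.2% in the whole table), and 1222 rose and 777 fell after scaling (4.55 and 2.88%). All 580 rises of that size and 777 of the falls were 2-fold under both scalings. Because of the upward shift, neither count is a check: rises could only grow, and the 777 falls are the whole scaled list. The rises and the falls both include genes that met the minimum of 1 TPM through a single stage and so had to differ.

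**Figure D3:**
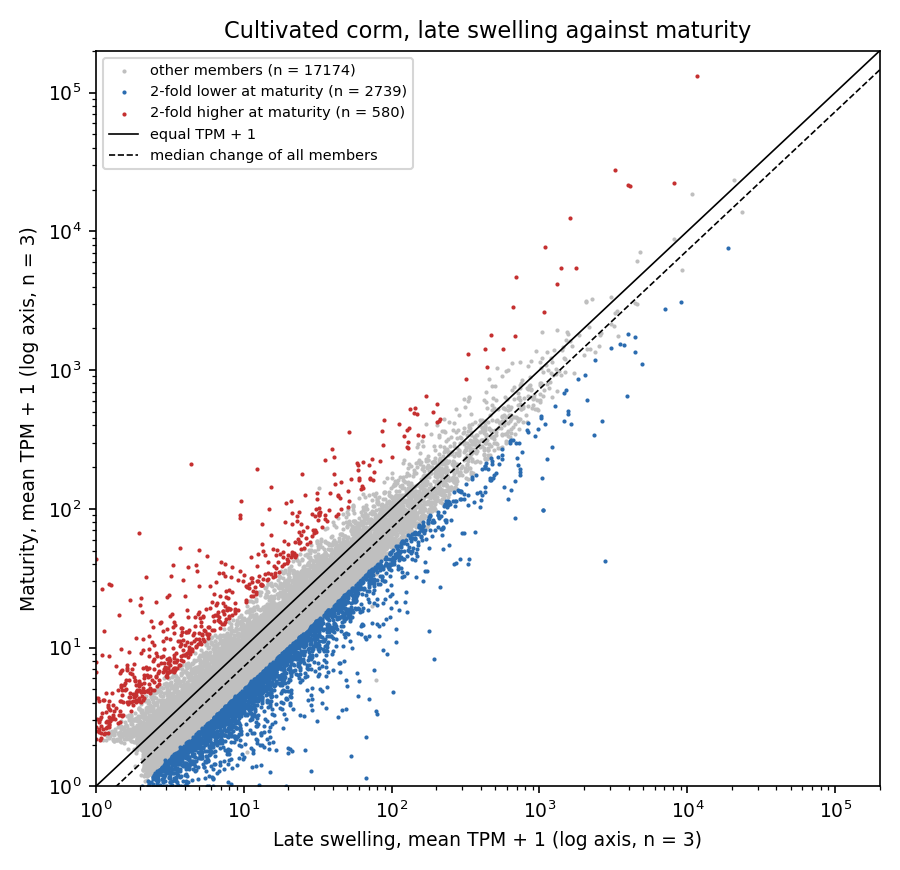
Mean TPM + 1 at maturity (y axis, log scale, n = 3) against late swelling (x axis, log scale, n = 3), 1 point per gene. Red points are the 580 genes called 2-fold higher at maturity and blue points the 2739 called 2-fold lower; the solid line marks equal values and the dashed line the median change of -0.46.

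The largest rise in proportion, by the rule for named genes, belonged to EdulChr12G00052480. Its late libraries held 2.48, 3.56 and 4.15 TPM and its mature libraries 198, 212 and 221 TPM. The groups were far apart, with a 61.9-fold difference in means and a log2 change of 5.60 ± 0.12 (SE, with adjusted p = 1.35e-18 by limma). Late swelling was its lowest cultivated stage: it stood at 34.5 ± 6.84 TPM at initial and 223 ± 6.74 TPM at middle swelling (SD, n = 3), so the mature level lay near that of the middle stage. EdulChr75G00250470 followed the same course. It was listed at 0 in all 3 late libraries and stood at 38.0, 43.2 and 46.8 TPM in the mature ones (limma adjusted p = 1.90e-18), after 54.3 ± 2.75 TPM at the middle stage (SD, n = 3). No fold is given for it, since one group was listed at 0. It met the minimum of 1 TPM only through the mature libraries and so had to differ, and its p-value adds no support.

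The 2 largest falls in proportion were those of genes with their highest cultivated level at late swelling. EdulChr52G00189610 went from 2746, 2791 and 2813 TPM in late libraries to 40.3, 41.3 and 41.8 TPM in mature ones. That is a log2 change of -6.05 ± 0.05 (SE, with adjusted p = 2.53e-25 by limma), with the late mean 67.7 times the mature mean. At the middle stage it had been as low as 32.3 ± 0.878 TPM (SD, n = 3). The feature novel1763 went from 63.2, 64.6 and 69.6 TPM to 0, 0.09 and 0.38 TPM, after 4.99 ± 0.509 TPM at the middle stage (SD, n = 3). Its log2 change of -5.86 ± 0.10 (SE, with adjusted p = 2.45e-20 by limma) rests on mature values near 0, and was -8.30 with a pseudocount of 0.1. This feature met the minimum of 1 TPM only through the late libraries and so had to differ, and its p-value adds no support.

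Late swelling was the low point in the level of the typical riser and the high point in that of the typical faller. Over the 580 genes that rose at least 2-fold, the median TPM was 14.4 at initial, 12.5 at middle, 3.66 at late swelling and 14.2 at maturity. Over the 2739 that fell, it was 11.2, 6.22, 12.9 and 4.23. The same medians over all 20493 genes were 11.99, 9.07, 11.5 and 8.10. The 777 genes that fell under both scalings stood at medians of 8.93, 5.08, 12.4 and 2.48 TPM. The late and mature values of these lists are those that chose them and are a description. So are the initial and middle values, for which no test was made.

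**Figure D4:**
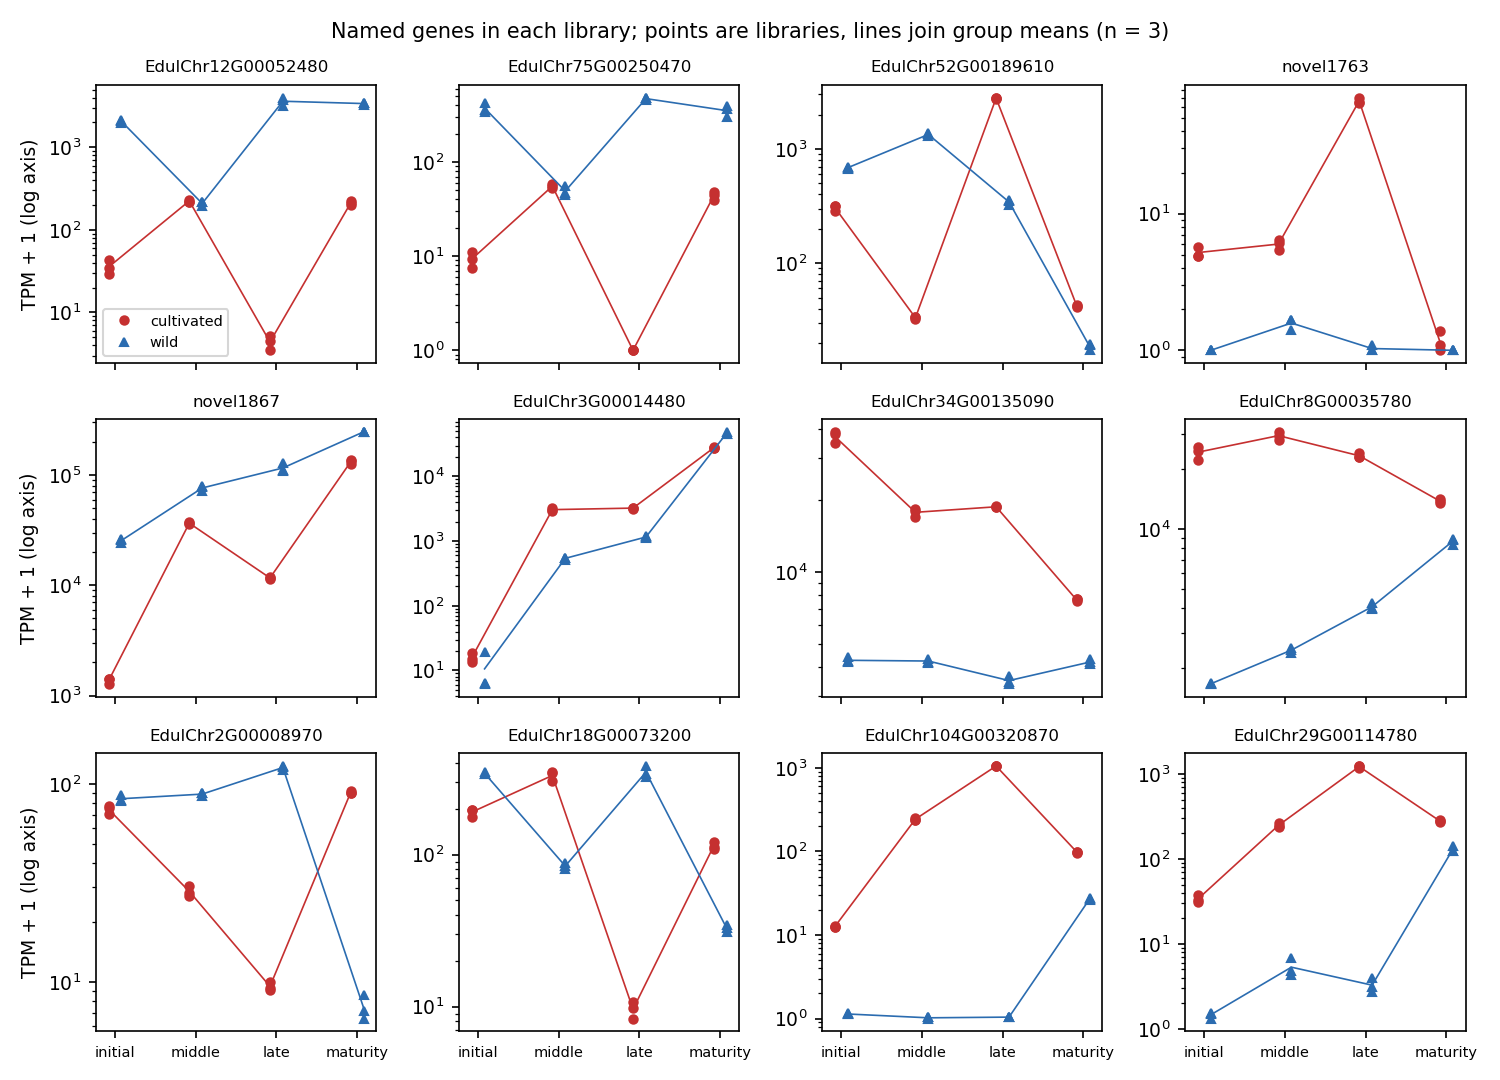
TPM + 1 (y axis, log scale) of the 12 named genes at 4 stages (x axis) in cultivated corms, red circles, and wild corms, blue triangles; points are libraries and lines join group means (n = 3). Among cultivated corms, EdulChr12G00052480 and EdulChr75G00250470 are lowest at late swelling, and EdulChr52G00189610 and novel1763 are highest there.

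Among the most abundant genes a larger share moved at least 2-fold in either direction, which is given as a description with no test. Of the 97 genes with a mean of 1000 TPM or more over both stages, 15 rose at least 2-fold and 23 fell at least 2-fold, or 15.5 and 23.7%. In the class from 5 to 20 TPM it was 182 and 1041 of 7801 genes, or 2.33 and 13.3%. After scaling the balance turned, to 23 rises and 11 falls (23.7 and 11.3%) in the class of 1000 TPM or more and 382 rises and 273 falls (4.90 and 3.50%) from 5 to 20 TPM. The median log2 change was -0.32 in the class of 1000 TPM or more, -0.40 from 100 to 1000, -0.44 from 20 to 100, -0.47 from 5 to 20 and -0.46 from 1 to 5 TPM. After scaling the medians of these 5 classes were 0.24, 0.16, 0.10, 0.03 and -0.07. Log2(TPM + 1) understates the change of low genes, which bears on the class from 1 to 5 TPM.

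Few genes were near 0 at one stage and expressed at the other. There were 11 genes under 0.1 TPM in all late libraries and at 1 TPM or more in all mature ones, with mature means from 1.20 to 42.7 TPM (median 2.06). The opposite pattern was seen in 27 genes, with late means from 1.05 to 18.3 TPM (median 2.01). Of the 11, 7 had a mean of at least 1 TPM at the initial and 6 at the middle stage, and none was under 0.1 TPM at both. Of the 27, 14 had such a mean at the initial and 6 at the middle stage, and 1 was under 0.1 TPM at both. With limits of 0.5 and 2 TPM the numbers were 23 and 56. The number of genes at 1 TPM or more was 20526 ± 28.0 in late and 19263 ± 22.3 in mature libraries (SD, n = 3), with no overlap (exact two-sided permutation p = 0.1, the smallest possible, adjusted p = 0.1 over 2 tests). After scaling the difference shrank from -1264 to -250 genes.

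The features without the EdulChr prefix are given separately, as a description with no test. Of these 1469, 368 fell at least 2-fold (25.1%) and 37 rose (2.52%). Among the 19024 genes with the prefix, 2371 fell (12.5%) and 543 rose (2.85%). After scaling 108 and 669 fell, or 7.35 and 3.52%, and 59 and 1163 rose, or 4.02 and 6.11%. The features were lower in abundance, with a median of 3.76 TPM against 10.7 TPM, and shares are also given within classes of like abundance. From 20 to 100 TPM, 30.3% of 122 features and 11.3% of 4899 genes fell at least 2-fold, and from 1 to 5 TPM 23.7% of 819 and 13.1% of 5229. From 5 to 20 TPM it was 28.2% of 422 and 12.5% of 7379, and from 100 to 1000 TPM the shares were closer, at 18.6% of 43 and 13.5% of 1157, where 9.30 and 4.24% rose. The summed share of the features was 5.11 to 5.47% in late and 16.5 to 17.6% in mature libraries, yet without novel1867 it was 3.95 to 4.27% and 3.93 to 4.03%.

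The number that follows EdulChr in an ID took 111 values. Among the 105 of them with at least 100 genes, the share that fell at least 2-fold ranged from 6.79 to 18.9% and the share that rose from 0 to 6.42%. The median log2 change ranged from -0.59 to -0.27. Genes whose IDs were 10 apart, the usual step between neighbouring IDs, formed 11810 pairs, over which their log2 changes correlated with r = 0.06 (Pearson) and rho = 0.06 (Spearman), across genes within the same libraries. Both genes fell at least 2-fold in 225 pairs, both rose in 23 and they went opposite ways in 72. Of the 448 risers with such a neighbour 44 had at least 1 neighbour that rose, and of the 2014 fallers 434 had at least 1 that fell, where 2.85% of all genes with the prefix rose and 12.5% fell. A gene can have a neighbour on either side, and these counts were not tested.

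The step of the same name in wild corms, which shares no library with the cultivated one, differed from it for most genes. The labels do not say whether the stages mark the same interval in both origins. A difference in stage timing cannot be told apart from one of origin. Across the 20493 genes changes in the 2 origins correlated with r = -0.09 (Pearson) and rho = -0.17 (Spearman), or -0.07 and -0.15 after scaling, given as a description across genes, which are not independent. The difference between the steps passed limma's interaction test for 16234 genes, 7867 of them with a higher and 8367 with a lower change in cultivated corms (76.5% passed in the whole table, 43.5% higher and 33.0% lower). After scaling 16446 passed (77.9% in the whole table). Of the 580 genes that rose at least 2-fold in cultivated corms, 116 were called higher and 375 lower in wild corms, and 89 were not called. The wild step was called higher for 20.8% and lower for 57.6% of the 20493 genes (17.3 and 59.9% in the whole table). Their median wild change was -0.63, against -0.36 over all 20493 genes (-0.20 against 0.01 after scaling, with 199 higher and 294 lower, and 33.4 and 45.8% in the whole table). Of the 2739 that fell, 798 were higher and 1245 lower in wild corms, with a median of -0.13. After scaling that turned to 1335 higher and 925 lower, with a median of 0.20.

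At 2-fold or more, 930 of the genes rose and 4913 fell in wild corms (3.86 and 27.4% in the whole table). The origins shared 54 rises, which are 9.31% of the cultivated and 5.81% of the wild list, and 656 falls, 23.95% of the cultivated and 13.4% of the wild list. Another 238 genes rose in cultivated and fell in wild corms, 41.0% of the cultivated and 4.84% of the wild list, and 196 did the reverse, 7.16 and 21.1%. After scaling the numbers were 173 shared rises, 228 shared falls, 358 up in cultivated and down in wild, and 130 the reverse. In wild corms 12% of the 20493 genes then rose and 15% fell 2-fold, against 10 and 20.3% in the whole table.

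**Figure D5:**
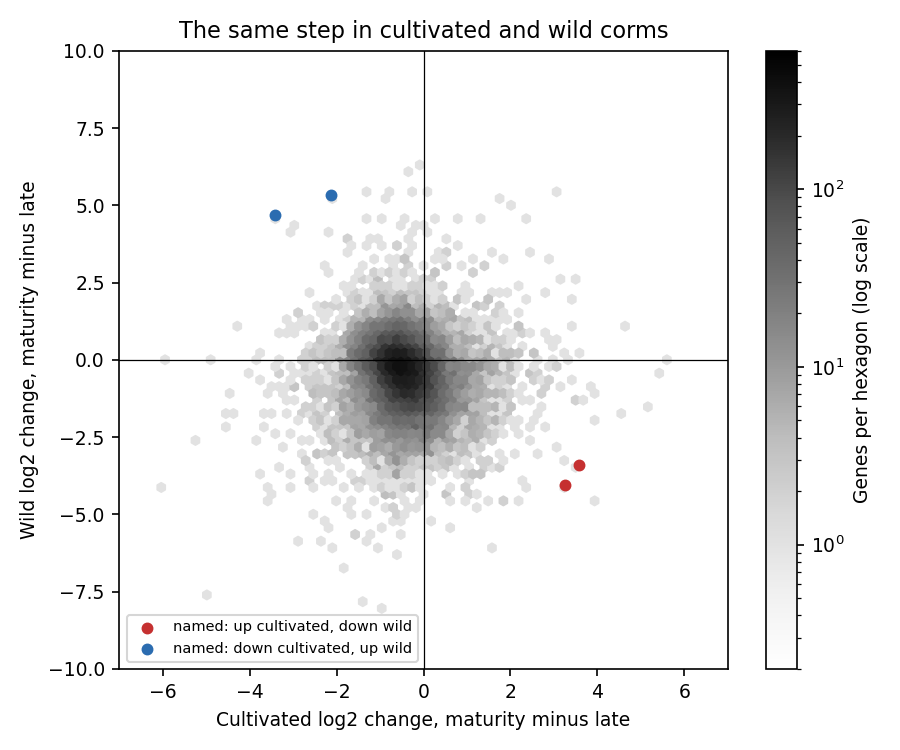
Log2 change of TPM + 1 from late swelling to maturity in wild corms (y axis) against that in cultivated corms (x axis), with genes counted per hexagon in grey on a log scale. The cloud has no upward slope (Pearson r -0.09); red and blue points mark the named genes that changed in opposite directions.

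Opposite changes were large in single genes, which were chosen by limma's test and the size of the difference between origins. EdulChr2G00008970 rose in cultivated corms from 8.15, 8.29 and 9.04 TPM to 88.9, 89.1 and 90.8 TPM. In wild corms it fell from 117, 121 and 122 TPM to 5.53, 6.15 and 7.54 TPM. The log2 changes were 3.26 and -4.04, and their difference, cultivated minus wild, was 7.30 ± 0.10 (SE, with adjusted p = 3.41e-22 by limma). EdulChr18G00073200 showed the same crossing, with 7.36, 8.83 and 9.68 TPM going to 108, 111 and 120 TPM in cultivated corms and 322, 340 and 383 TPM to 30.2, 31.9 and 33.5 TPM in wild corms. Its difference was 6.98 ± 0.11 (SE, with adjusted p = 2.92e-21 by limma). In both genes the 3 libraries of each stage lay apart from those of the other stage in each origin.

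EdulChr104G00320870 went the other way. In cultivated corms it fell from 1047, 1048 and 1055 TPM to 96.0, 97.2 and 98.4 TPM. In wild corms it rose from 0.04 TPM in each late library to 25.2, 26.0 and 26.9 TPM, and it had been at or below 0.15 TPM in every earlier wild library. The difference was -8.12 ± 0.05 (SE, with adjusted p = 7.70e-28 by limma), which depends on the pseudocount because of the low wild values (-10.98 with 0.1). EdulChr29G00114780 fell from 1188, 1235 and 1248 TPM to 270, 279 and 288 TPM in cultivated corms and rose from 1.72, 2.09 and 2.98 TPM to 122, 123 and 141 TPM in wild corms, a difference of -7.46 ± 0.19 (SE, with adjusted p = 3.43e-18 by limma). Both remained higher in cultivated than in wild mature libraries.

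The features that carried the step in cultivated corms also differed in size from their wild course. novel1867 rose by 3.50 in cultivated and 1.09 in wild corms (log2), where it was already at 115969 ± 11010 TPM at late swelling (SD, n = 3). EdulChr3G00014480 rose by 3.10 in cultivated and 5.33 in wild corms. The large losers of cultivated corms, EdulChr34G00135090 and EdulChr8G00035780, had wild log2 changes of 0.26 and 1.10 (limma adjusted p = 9.20e-05 and 1.47e-13). In mature wild corms they stood at 4181 ± 103 and 8686 ± 289 TPM (SD, n = 3), below the mature cultivated levels.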

How the data were processed

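The deposited table, made by the authors, held TPM values for 35975 genes in 24 libraries, rounded to 2 decimals. Per the submitters' processing notes, the tools were HISAT2 2.0.4, StringTie 2.1.6 and DESeq2, with no role stated for any of them. Which genome build and annotation served is not given in the sources used here. Columns were matched to samples by origin, stage and sample number, and none was left over.

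TPM is no count, so log2(TPM + 1) was tested with limma 3.58.1 in R 4.3.3 (trended eBayes), on 27050 genes with at least 1 TPM in at least 3 of the 24 libraries. All libraries entered 1 fit with 8 group means and no replicate block. Each SE therefore draws on the spread within all 8 groups and not within the compared ones alone. P-values were Benjamini-Hochberg adjusted over all 27050 genes, with calls under 0.05. Named genes had a call, no overlap of libraries, and 10 TPM or more as the mean of the higher group. The 2 largest in each direction were named by log2 change, by TPM difference, and by difference between origins among genes with opposite calls. The 2 genes given last in the closing section were chosen after their values were seen. The genes and lists were chosen with earlier results of these data known. Alternatives were a pseudocount of 0.1, other filters, median-of-ratios scaling, removal of the 10 highest genes, the compared groups alone, a replicate block, no trend, and each of the 6 libraries left out. The fit was tested on simulated data with normal noise and few changed genes, in which libraries were not held to a constant total. That test does not bear on the choice of scaling.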

Additional observations from a re-analysis of the deposited data

Results flagged for a closer look

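Each result here was picked out because the step from late swelling to maturity differed between cultivated and wild corms by limma's interaction test. EdulChr2G00008970, EdulChr18G00073200, EdulChr104G00320870 and EdulChr29G00114780 had been named by that same test and the size of the difference. The test gives these genes no further support. The interaction test passed for 16234 of the 20493 genes and for 76.5% of the whole table, so passing it does not set a gene apart. The log2 change in cultivated corms less that in wild corms was 5.69 for EdulChr12G00052480, 5.88 for EdulChr75G00250470, 2.40 for novel1867, 7.30 for EdulChr2G00008970 and 6.98 for EdulChr18G00073200. It was -1.84 for EdulChr52G00189610, -5.82 for novel1763, -2.24 for EdulChr3G00014480, -1.56 for EdulChr34G00135090, -1.85 for EdulChr8G00035780, -8.12 for EdulChr104G00320870 and -7.46 for EdulChr29G00114780. The value for EdulChr75G00250470 rests on a group listed at 0, and those for novel1763 and EdulChr104G00320870 on groups near 0, so these 3 move with the pseudocount (9.17, -7.99 and -10.98 with 0.1).

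EdulChr52G00189610 fell in both origins, from 342 ± 17.1 to 17.6 ± 1.18 TPM in wild corms (SD, n = 3), so its difference is one of size. For EdulChr12G00052480 the wild step was not called (3612 ± 439 to 3384 ± 128 TPM, SD, n = 3, limma adjusted p = 0.536), but was called higher after median-of-ratios scaling (log2 change 0.46, limma adjusted p = 0.00092). It was far higher in wild than in cultivated corms at both stages. novel1763 was at 0 to 0.09 TPM in the late and mature wild libraries.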

How the results depend on the processing

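Scaling decided the prevailing direction. With median-of-ratios scaling the median change (log2) turned from -0.46 to 0.0247, calls became 7507 higher and 6431 lower, and 2-fold changes 1222 higher and 777 lower. Without the 10 highest genes the median was -0.17, 4847 genes were called higher, and 926 and 1443 changed 2-fold. With a pseudocount of 0.1 the median was -0.52 and 4204 genes fell 2-fold. With limits of 0.5 and 2 TPM, 23 and 56 genes were near 0 at one stage. Of the named genes, EdulChr8G00035780 lost its call with only the compared groups fitted (limma adjusted p = 0.0637); the cause was not tested. The other named genes kept direction and call under every alternative in which they were tested. The 10 highest genes, once removed, had no value. With only the compared groups fitted, the limma adjusted p-values of the named genes for the cultivated step ranged from 3.28e-07 to 0.0637. With all libraries fitted they ranged from 2.53e-25 to 1.55e-09.

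With a single cultivated library left out, calls ranged from 16124 to 16257 (2361 to 2472 higher, 13652 to 13896 lower), 2-fold changes from 567 to 591 higher and 2718 to 2813 lower, and the median from -0.46 to -0.45. The step differed between origins for 15931 to 16007 genes. The share of the 10 highest genes rose by 17.2 to 17.7 points and the detected genes fell by 1249 to 1277.

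Same-numbered late and mature libraries had deviation correlations of -0.0014, 0.0072 and -0.011, so no pairing by number was seen. The labels do not say whether equal numbers share a plant or batch, which these values cannot exclude. With the replicate block 16697 genes were called, against 16704 without it, and 580 rose and 2741 fell 2-fold. Sequencing depth is unknown, and the median SE of the log2 change was 0.10 for genes at 1 to 5 TPM against 0.05 at 100 to 1000 TPM.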

Other observations

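The next largest gains, after those of the 2 named genes, were of EdulChr2G00006260 and EdulChr2G00006240, whose IDs are close in number. In cultivated corms they rose together, from 3987 ± 98.0 to 21438 ± 1204 TPM and from 4071 ± 272 to 21143 ± 1110 TPM (SD, n = 3 each). The log2 changes were 2.43 ± 0.07 and 2.38 ± 0.63 (SE, limma adjusted p = 4.27e-17 and 0.0022). These SEs draw on the spread in all groups of the fit, wild ones included, and not on the cultivated libraries alone. In wild corms EdulChr2G00006260 rose from 1164 ± 16.9 to 28270 ± 938 TPM, and EdulChr2G00006240 stood at 8.67 ± 7.48 TPM at late swelling and 86.9 ± 3.21 TPM at maturity (SD, n = 3 each). Whether reads were shared between the 2 genes was not tested.

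Of the 10 largest gainers of cultivated corms, 8 were also called higher in wild corms and the other 2 were called lower. Of the 10 largest losers, 8 were called higher in wild corms and 1 lower. Over all genes tested, 17.3% were called higher and 59.9% lower in the wild step, by TPM as deposited.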
